A study of Rattus norvegicus with 16 samples.

Results

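Fatty acid and triglyceride synthesis was followed in weanling rat liver through 32 genes, from the supply of acetyl units to the assembly of stored fat. The genes were listed by symbol, and a probe belonged to a gene where its RefSeq accession maps to that symbol. The brightest kept probe stood for each gene. A probe was found for 30 of the 32 genes and none for Srebf1 or Pnpla3. The liver signal was strong enough to test 27 of them, among 12072 genes tested in all. The 3 others were too dim: Acacb was well above background on 0 of 16 arrays, Lpin1 on 1 MM array, and Lpin2 on 1 C, 1 CC and 1 MM array. The tested genes are therefore those with a liver signal on these arrays and not the whole list.

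All pups were male Sprague-Dawley rats aged 21 days, and 4 arrays were made for each of 4 groups. In group C the mother was given corn oil alone and reared her own pups. In group CC both the birth mother and the foster mother were corn oil controls. In group M the mother was given, in corn oil, a mixture of methyl mercury, polychlorinated biphenyls and organochlorine pesticides at 1 mg per kg per day from the start of gestation through nursing, and reared her own pups. In group MM both the birth mother and the foster mother were given that mixture. RNA of 2 pups of a treatment group, paired at random, went on each array, so each value is a mean over 2 livers. The litters are not given in the labels, so p-values measure the spread between pools, and pools may share a dam. Slide 1 carried the 8 control arrays (C and CC) and slide 2 the 8 mixture arrays (M and MM), so mixture and slide cannot be told apart, whereas CC against C and MM against M were each measured on 1 slide.

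Liver makes fatty acids when carbohydrate is plentiful. Citrate leaves the mitochondrion, is split to acetyl-CoA, and is built into palmitate, which is then elongated, desaturated and joined to glycerol phosphate as triglyceride. Insulin acting through SREBP-1c, glucose acting through ChREBP and oxysterols acting through the liver X receptor are known to induce the genes together. In suckling pups, which live on fatty milk, the pathway is known to be low, and it is known to rise at weaning onto a diet rich in carbohydrate.

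Each array measured liver RNA in the Cy5 channel and a universal rat reference RNA, made from cell lines, in the Cy3 channel. The ratio below is log2 of liver over reference, and a step of 1 is a 2-fold difference. Levels in a single channel, Cy5 or Cy3, are log2 normalised intensities. Values are given per probe, so levels are compared between arrays and never between genes. Array medians of the Cy5 intensity ran from 87 to 102, with a background of 67 to 73, between 46.2% and 53.9% of spots were well above background in Cy5, and no spot was saturated. All 8 hepatocyte markers were well above background on every array. Because whole liver was used, fewer cells of a type and less RNA per cell cannot be told apart. Adipocytes also express many of these genes. Of the adipocyte markers with a probe, Cfd, Fabp4, Cidea and Retn were well above background on all 16 arrays. Adipoq and Ucp1 were so only on CC 1 and C 10, and Lep on 0 arrays. The summed Cy5 signal of the 7 adipocyte markers that had a probe was 6170 to 9623 on C, 6050 to 9920 on CC, 5442 to 6365 on M and 4824 to 7623 on MM arrays. Cfd was the brightest of the 7 on every array, so these sums weigh it most. C 10, with Adipoq and Ucp1 above background, summed to 8306, below the 9623 of C 9, where they were not. Skeletal muscle markers stood apart on CC 1 and CC 2, and pancreas markers on CC 2, CC 1, MM 1 and M 6. The part of these tissues in the values below was not tested.

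The largest movement of the lipogenic genes was between pools of a single group, not between groups. The liver pool C 9, from corn oil control pups with their own dams, had the lowest ratio of all 16 arrays for 15 of the 27 genes (55.6%), against 7.6% of all genes tested. In Cy5 alone it was the lowest for 16 (59.3%), against 6.15%. The next array in that count, MM 3, was the lowest for 6 (22.2%), close to its share of 18.6% over all genes. C 9 was chosen for description after its values were seen, and no test was applied to it.

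**Figure D1:**
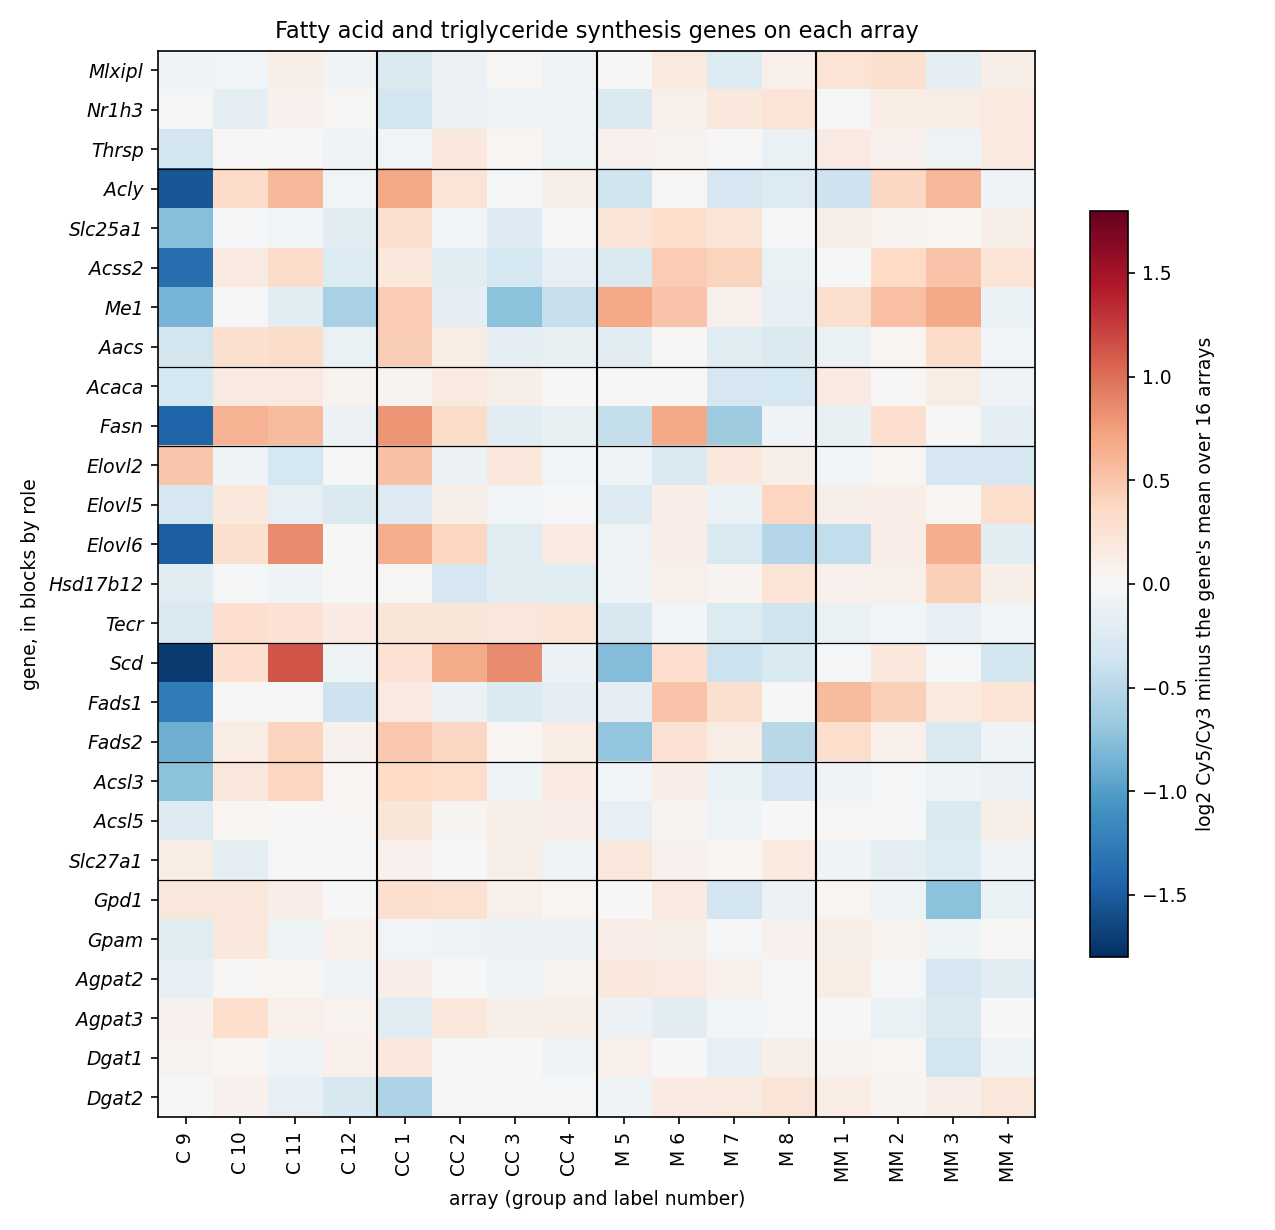
Log2 ratio of each of the 27 tested genes (rows, by role) on each of the 16 arrays (columns, by group), shown as a difference from the gene's mean over all arrays. Blue marks a lower and red a higher ratio, and the C 9 column is the bluest, with Scd, Elovl6, Acly and Fasn at its low end.

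The core genes are given first, array by array. Fasn, the fatty acid synthase that makes palmitate, had log2 ratios of -1.75 on C 9, 0.31 on C 10, 0.26 on C 11 and -0.41 on C 12. On CC 1 to CC 4 Fasn had 0.49, 0.02, -0.52 and -0.45, on M 5 to M 8 -0.74, 0.37, -0.95 and -0.37, and on MM 1 to MM 4 -0.44, -0.01, -0.31 and -0.49. C 9 lay 0.79 below the lowest of the other 15 arrays, and the 4 groups overlapped.

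Scd, the stearoyl-CoA desaturase that puts the first double bond into saturated chains, had -1.58, 0.45, 1.28 and 0.07 on C 9 to C 12, and 0.41, 0.82, 1.01 and 0.04 on the CC arrays. On the M arrays Scd had -0.63, 0.45, -0.23 and -0.12, and on the MM arrays 0.12, 0.34, 0.13 and -0.19. C 9 was again the lowest array, by 0.95, while C 11 of the same group was the highest of the 16.

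Elovl6, which lengthens palmitate to stearate, had -1.65, 0.12, 0.69 and -0.15 on C 9 to C 12, and 0.50, 0.22, -0.38 and 0.01 on the CC arrays. On the M arrays Elovl6 had -0.26, -0.05, -0.44 and -0.69, and on the MM arrays -0.61, -0.05, 0.49 and -0.36. The lowest and the highest of the 16 arrays, C 9 and C 11, were both of the C group.

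Acaca, the acetyl-CoA carboxylase that makes malonyl-CoA for the synthase, was near the limit of detection. It was well above background on 3 C, 3 CC, 0 M and 1 MM arrays, so it passed the filter through the control groups alone. Its ratios were -0.41, 0.07, 0.07 and -0.02 on C 9 to C 12, -0.04, 0.07, 0.02 and -0.08 on the CC arrays, -0.08, -0.10, -0.39 and -0.41 on the M arrays, and 0.06, -0.06, 0.06 and -0.15 on the MM arrays. The arrays with the lowest values, C 9, M 7 and M 8, came from both C and M.

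In the ratio, C 9 stood apart less for the regulator Thrsp and not at all for Dgat2, the last enzyme of triglyceride assembly. Thrsp, a lipogenic nuclear protein known as Spot 14, had ratios of 4.14, 4.47, 4.49 and 4.42 on C 9 to C 12, 4.43, 4.66, 4.51 and 4.38 on the CC arrays, 4.55, 4.54, 4.47 and 4.35 on the M arrays, and 4.63, 4.55, 4.38 and 4.65 on the MM arrays. C 9 was the lowest of the 16, 0.215 below the next, and in Cy5 it was 0.578 below the next. Dgat2, which adds the last fatty acid to make triglyceride, had 4.54, 4.63, 4.40 and 4.26 on C 9 to C 12, 3.997, 4.52, 4.52 and 4.52 on the CC arrays, 4.47, 4.69, 4.70 and 4.79 on the M arrays, and 4.68, 4.60, 4.67 and 4.75 on the MM arrays. For Dgat2 the low array was CC 1, and C 9 lay among the rest of its group.

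**Figure D2:**
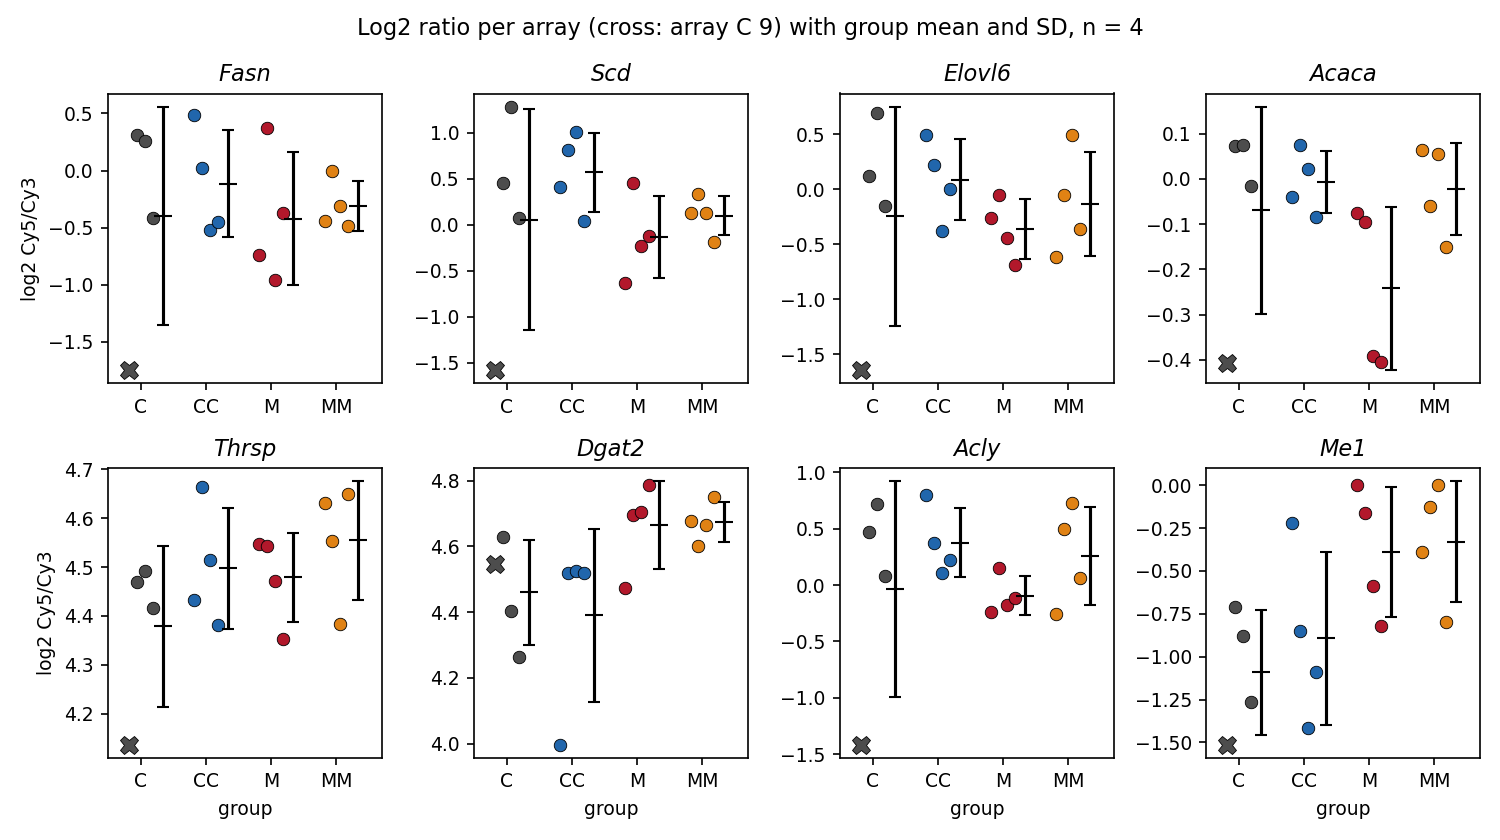
Log2 ratio of liver over reference for the 6 core genes with a probe and for Acly and Me1, 1 panel a gene, with C 9 as a cross and with the 4 arrays of each group as points and the group mean with its SD as a bar. In the panels of Fasn, Scd and Elovl6, C 9 is the lowest value, at -1.75, -1.58 and -1.65.

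Set against the mean of the 3 other C arrays, C 9 was at least 2-fold lower for 7 of the 27 genes (25.9%), against 0.431% of all genes tested. By role these were the 3 desaturases Scd (4.54-fold lower), Fads1 (2.19-fold) and Fads2 (2.11-fold), the elongase Elovl6 (3.65-fold), the synthase Fasn (3.48-fold), and 2 enzymes that make cytosolic acetyl-CoA, Acly from citrate (3.58-fold) and Acss2 from acetate (2.72-fold). The gene just outside this limit was Acsl3, an acyl-CoA synthetase, at 1.93-fold lower, followed by the citrate carrier Slc25a1 at 1.60-fold lower. In Cy5 alone the same number of genes, 7, was at least 2-fold lower, and Fasn was 3.64-fold lower. In Cy3, which holds the same reference RNA on every array, 0 of the 27 were 2-fold lower, and the median of the 27 genes was 0.01. The fall on C 9 therefore lay in the liver channel.

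The pattern did not cover the whole pathway. Most genes of triglyceride assembly differed little on C 9. Agpat2 was -0.14 from the mean of the other C arrays, Agpat3 -0.09, Dgat1 0.04 and Dgat2 0.11, and Gpd1, which makes glycerol phosphate, was 0.09. Gpam, which adds the first fatty acid to glycerol phosphate, was -0.28, and C 9 was its lowest array, 0.10 below the next. Among the regulators, Mlxipl, which encodes ChREBP, was -0.06 and Nr1h3, which encodes the liver X receptor alpha, -0.01. Elovl2, an elongase of polyunsaturated chains, went the other way, at 0.62. Over the 27 genes the median difference was -0.32, against 0.01 over all genes tested. Insig1, which holds SREBP precursors in the endoplasmic reticulum and is itself an SREBP target, was the only 1 of 45 other tested genes of lipid synthesis and its control (2.22%) that was at least 2-fold lower on C 9, by 4.33-fold.

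**Figure D3:**
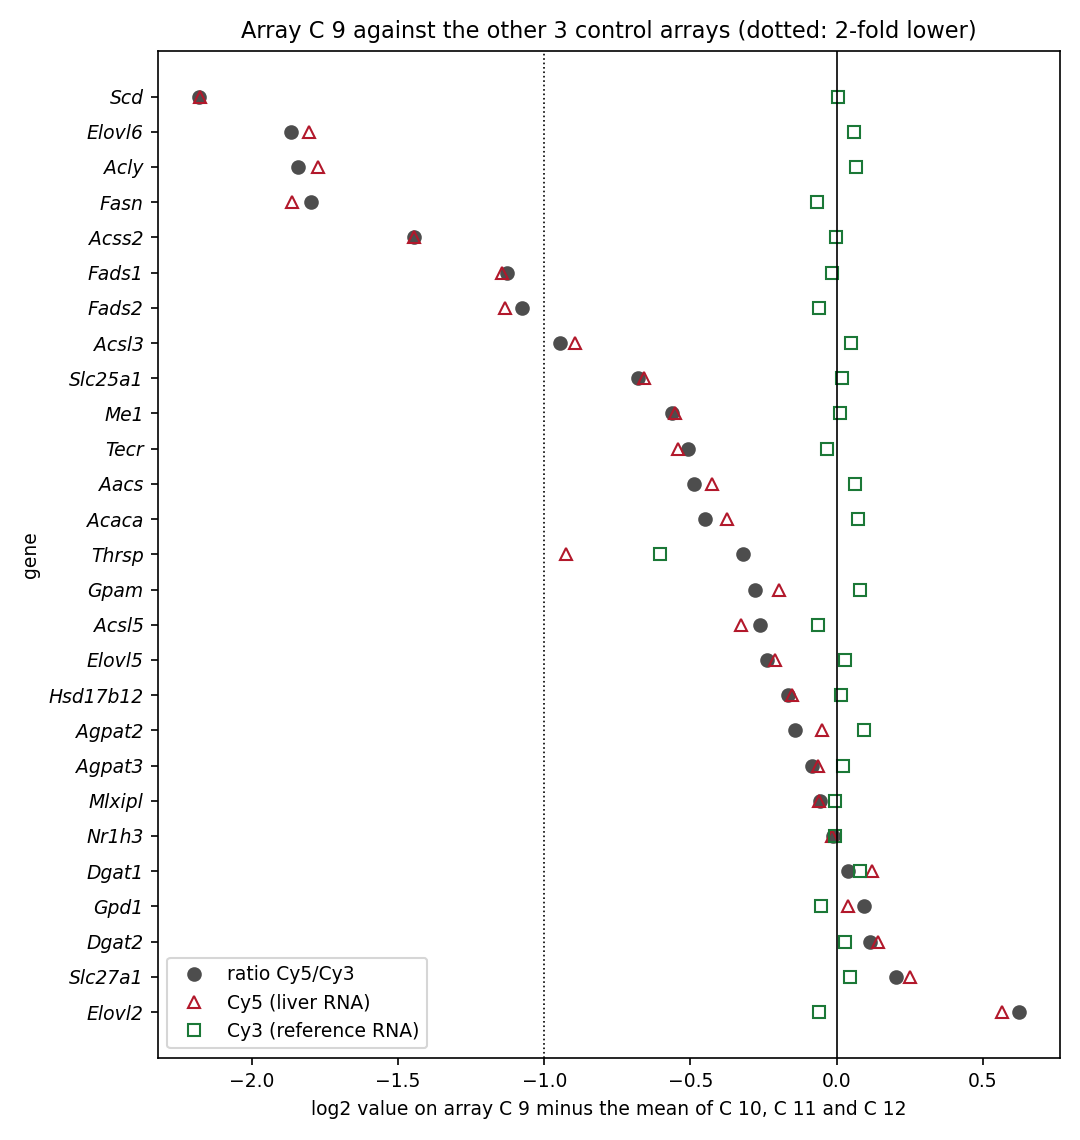
Log2 difference of array C 9 from the mean of the other 3 C arrays for each of the 27 genes, in the ratio, in Cy5 alone and in Cy3 alone, with a dotted line where C 9 is 2-fold lower. The ratio and Cy5 points of Scd, Elovl6, Acly, Fasn, Acss2, Fads1 and Fads2 lie left of the -1 line, and all Cy3 points lie right of it.

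The quality values of C 9 are given here, and their part in its low values was not tested. Its Cy5 signal was well above background at 51.2% of spots, inside the range of the others, and its share of outlier spots, 2.06%, was the highest of the 16 (1.44% to 2.06%). No other array had any of the 27 genes at least 2-fold below the mean of the rest of its group. In the other direction, C 11 was at least 2-fold higher in the ratio for 3 of the 27 (0.249% of all genes) and M 6 for 1 (0.141%). C 11 is part of the mean that C 9 was set against, so the folds of C 9 depend on it too. C 9 supplied a median of 26.7% of the within-group sum of squares of the 27 genes, against 3.34% for all genes. It supplied over 50% for Tecr, Acsl3 and Acly, 3 of the 27 (11.1%), against 0.34% of all genes. Its summed adipocyte markers, 9623, were the highest of the C arrays, led by Cfd at 12.94, while Adipoq, Lep and Ucp1 (5.94) were not well above background there. Its hepatocyte sum of 2244000 was the lowest of the C arrays, beside 2249000 on C 12. The part of either in the C 9 values was not tested.

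The promoters of the genes that were at least 2-fold lower on C 9 are shown because those genes moved together. RefSeq sequences of the GRCr8 build, from 250 bases before to 50 bases after 1 start site per promoter, were found for 26 of the 32 genes and for 5 of these 7. They lie at chr10:85963582-85963881 on the minus strand for Acly, chr3:164464453-164464752 on the plus strand for Acss2, chr1:253231682-253231981 on the minus strand for Scd, chr1:216252442-216252741 on the plus strand for Fads1 and chr1:216171984-216172283 on the minus strand for Fads2. These start sites lay 87 to 974 bases inside the outermost start of the RefSeq gene, so each window is that of 1 start among others. The sequence is written along the gene's own strand, and capitals mark 3 kinds of motif read on either strand. The first is the E-box, CANNTG, whose letters many helix-loop-helix factors share. The second is the CCAAT box, known to be bound by NF-Y. The third is the GC box, GGGCGG, known to be bound by Sp1.
Acly: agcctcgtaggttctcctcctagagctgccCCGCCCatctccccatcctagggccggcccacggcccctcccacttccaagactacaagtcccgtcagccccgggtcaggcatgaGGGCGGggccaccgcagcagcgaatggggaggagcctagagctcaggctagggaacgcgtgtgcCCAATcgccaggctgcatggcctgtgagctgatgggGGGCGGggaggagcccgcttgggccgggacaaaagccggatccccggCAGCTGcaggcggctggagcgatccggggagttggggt
Acss2: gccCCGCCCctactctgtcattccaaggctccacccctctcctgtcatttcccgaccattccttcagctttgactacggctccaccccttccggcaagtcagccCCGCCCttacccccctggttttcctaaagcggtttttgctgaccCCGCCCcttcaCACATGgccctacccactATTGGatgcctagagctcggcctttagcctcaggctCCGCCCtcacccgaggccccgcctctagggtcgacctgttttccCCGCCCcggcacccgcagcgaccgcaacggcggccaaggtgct
Scd: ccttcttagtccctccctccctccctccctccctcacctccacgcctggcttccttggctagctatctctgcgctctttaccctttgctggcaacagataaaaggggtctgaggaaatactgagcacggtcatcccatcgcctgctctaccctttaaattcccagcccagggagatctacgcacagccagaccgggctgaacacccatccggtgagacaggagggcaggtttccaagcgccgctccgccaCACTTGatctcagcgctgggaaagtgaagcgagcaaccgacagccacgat
Fads1: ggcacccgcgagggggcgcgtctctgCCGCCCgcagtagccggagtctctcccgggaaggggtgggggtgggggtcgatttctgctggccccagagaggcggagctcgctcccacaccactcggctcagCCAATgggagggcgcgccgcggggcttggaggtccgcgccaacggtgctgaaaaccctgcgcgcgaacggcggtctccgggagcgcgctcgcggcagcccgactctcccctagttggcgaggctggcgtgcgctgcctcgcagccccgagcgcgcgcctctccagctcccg
Fads2: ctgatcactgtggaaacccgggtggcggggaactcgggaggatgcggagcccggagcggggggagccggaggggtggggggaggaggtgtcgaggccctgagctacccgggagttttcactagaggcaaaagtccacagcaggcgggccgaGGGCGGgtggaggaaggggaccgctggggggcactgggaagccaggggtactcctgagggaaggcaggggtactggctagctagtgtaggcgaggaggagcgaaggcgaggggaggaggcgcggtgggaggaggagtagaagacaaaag
Acly held 1 E-box, 1 CCAAT box and 3 GC boxes, Acss2 1, 1 and 5, Scd 1 E-box alone, Fads1 1 CCAAT box and 1 GC box, and Fads2 1 GC box, and the marked motifs did not overlap. The classic sterol regulatory element was searched by its exact letters and was found in 0 of the 5. Over all 33469 promoters in the table, 72.1% held an E-box, 37.5% a CCAAT box, 33.1% a GC box and 0.125% the sterol element. Over the 26 genes with a promoter the shares were 73.1%, 61.5%, 53.8% and 0%. The E-box share was thus close to that of all promoters, and the CCAAT and GC box shares were higher as counts, with no test. A match is a run of letters and no evidence of a bound factor, and a window without one shows only that these letters are absent from it.

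The comparison of M with C asks whether the mixture differed from corn oil in pups that stayed with their own dams. In the ratio 2 of the 27 genes passed the test (7.41%), against 20.4% of all genes tested, so the share was below the background. Slc25a1, which exports citrate from the mitochondrion, rose, and Tecr, which encodes the last reductase of the elongation cycle, fell. Unadjusted p was below 0.05 for 5 genes, and for 4050 of all 12072. The median difference was 0.00 over the 27 genes and -0.05 over all genes.

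Both were described array by array after their values were seen. Slc25a1 had ratios of -0.33, 0.42, 0.39 and 0.25 on C 9 to C 12 and 0.68, 0.76, 0.68 and 0.42 on M 5 to M 8. All 4 M arrays lay above all 4 C arrays, by a narrow margin between M 8 and C 10. The log2 difference was 0.45 ± 0.14 (SE, n = 4 arrays per group), with a limma adjusted p of 0.035.

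Tecr had ratios of 1.08, 1.66, 1.61 and 1.502 on C 9 to C 12 and 1.07, 1.31, 1.12 and 1.00 on M 5 to M 8. The groups overlapped through C 9 alone, which lay among the M arrays. The log2 difference was -0.34 ± 0.10 (limma adjusted p = 0.029). Each call depended on single arrays: that of Slc25a1 was lost without C 9, C 12, M 5, M 6 or M 7 (adjusted p 0.0531 to 0.0955), with a difference of 0.28 without C 9, and that of Tecr without C 10, C 11, C 12, M 5, M 7 or M 8 (adjusted p 0.0559 to 0.097).

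Neither call was present in the liver channel. In Cy5 alone Slc25a1 differed by 0.28 (limma adjusted p = 0.259) and Tecr by -0.14 (adjusted p = 0.539), while the reference channel differed by -0.17 and 0.20. In Cy5 alone 0 of the 27 genes passed, and 3.17% of all genes passed. Unadjusted p was below 0.05 there for 6 of the 27 and for 2186 of all 12072. The reference RNA, the same on every array, differed between the slides for 20 of the 27 genes in Cy3 (8 higher and 12 lower on the mixture slide), against 65.3% of all genes.

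The ratio and the liver channel differed in sign for 12 of the 27 genes, and for 4274 of all 12072. Fads1, a desaturase of polyunsaturated chains, was 0.56 in the ratio, -0.06 in Cy5 and -0.63 in Cy3, and Acss2 was 0.40, -0.16 and -0.55. Dgat2 was 0.21 ± 0.12 in the ratio and -0.13 in Cy5. For Fads1 and Acss2 the Cy3 difference was larger than the ratio's, and the Cy5 difference was the smallest of the 3.

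The main lipogenic enzymes did not pass. The log2 difference of M from C was -0.03 ± 0.38 for Fasn, -0.19 ± 0.42 for Scd, -0.11 ± 0.37 for Elovl6 and -0.17 ± 0.11 for Acaca. The carboxylase was not well above background on any M array, and it was kept through the control groups alone, so no direction is drawn from it. Its Cy5 means were 7.03 in C and 6.80 in M, with overlapping groups (limma adjusted p = 0.206). The standard errors of Fasn, Scd and Elovl6 were the 3 widest of the 27, and Me1, at 0.70 with an SE of 0.25, did not pass either, so differences of less than about 3 SE were not detectable here.

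Leaving out C 9 turned near-zero differences of these enzymes into lower values in M, and none of those enzymes passed. Scd moved to -0.74 ± 0.29 (limma adjusted p = 0.101), Elovl6 to -0.58, Acly to -0.52, Fasn to -0.47 and Fads2 to -0.41. Over the alternatives run, the adjusted p of Scd was 0.101 to 0.979. Over the same alternatives the differences ran to both sides of 0. They were -0.93 to 0.22 for Scd, -0.58 to 0.20 for Elovl6, -0.63 to 0.19 for Acly and -0.59 to 0.21 for Fasn. With C 11 left out instead, the median difference of the 27 genes was 0.135, against 0.006 without C 9. In Cy5 alone without C 9, Scd was -0.93, Acly -0.63, Fasn -0.59 and Acss2 -0.52, again with 0 of 27 passing, against 1.55% of all genes. In the ratio 1 gene passed without C 9, Tecr at -0.47 ± 0.08 (adjusted p = 0.000996, 0.000996 to 0.539 over the alternatives), against 15.9% of all genes.

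**Figure D4:**
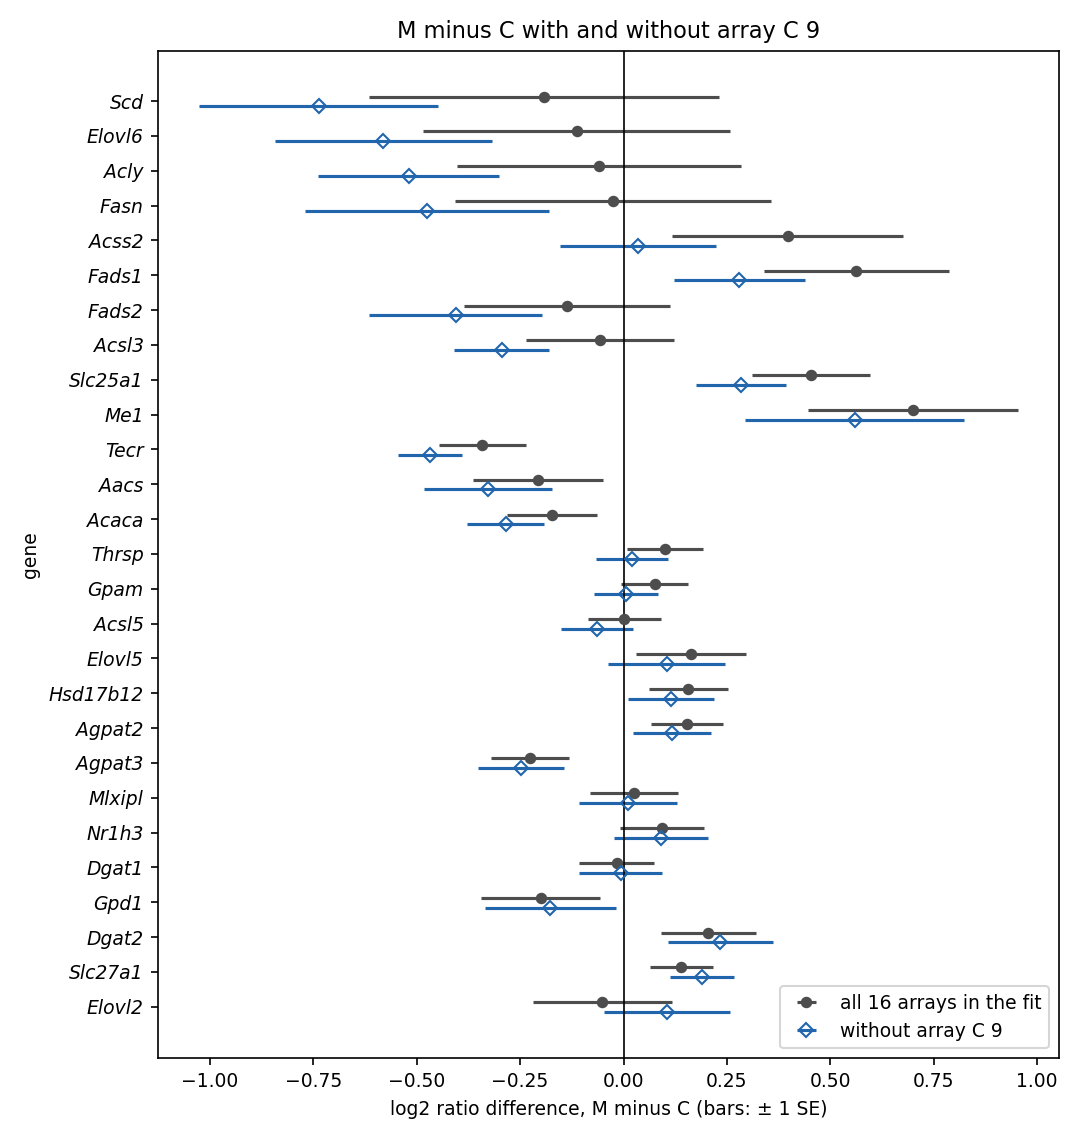
Log2 difference of M from C for each of the 27 genes with all arrays and with C 9 left out, with the SE as a bar. Scd moves from -0.19 to -0.74 and Fasn from -0.03 to -0.47, while Me1 stays above 0 at 0.70 and 0.56.

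Me1, the malic enzyme that supplies NADPH for chain building, was the gene with the largest difference and is described after its values were seen. Its ratio was -1.51, -0.71, -0.88 and -1.26 on C 9 to C 12 and 0.00, -0.16, -0.59 and -0.82 on M 5 to M 8. In Cy5 it was 8.49, 9.28, 9.11 and 8.75 on the C arrays and 9.99, 9.94, 9.52 and 9.32 on the M arrays. The groups overlapped in the ratio. In Cy5 each M array was above each C array, by a narrow margin between M 8 at 9.32 and C 10 at 9.28.

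The log2 difference of Me1 was 0.70 ± 0.25 in the ratio (limma adjusted p = 0.062) and 0.79 ± 0.25 in Cy5 (adjusted p = 0.093), and neither passed. Its reference channel differed by 0.09. In cross-fostered pups it was 0.56 ± 0.25 in the ratio (adjusted p = 0.128) and 0.62 in Cy5. There the Cy5 levels overlapped, at 8.60 to 9.80 on CC and 9.27 to 10.11 on MM arrays. A second probe of Me1 gave 1.095 and 1.025 in the ratio and 0.96 and 0.82 in Cy5 for the 2 comparisons. With its 2 probes averaged the difference of M from C was 0.90 and passed (adjusted p = 0.0146, 0.0146 to 0.233 over the alternatives). For MM from CC that average was 0.79 and also passed (adjusted p = 0.028, 0.028 to 0.327 over the alternatives). Within array rows 1 and 2, the brighter probe gave 1.03 and 0.37 for M from C, and in the opposite order 0.28 and 0.85 for MM from CC.

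MM against CC puts the same question to cross-fostered pups. In the ratio 2 of the 27 genes passed, against 20% of all genes, and unadjusted p was below 0.05 for 7 of the 27 and for 4060 of all 12072. Hsd17b12, the ketoacyl-CoA reductase of the elongation cycle, rose in the ratio, and Tecr, which acts in the same cycle, fell. The median difference was -0.12 over the 27 genes and -0.06 over all genes.

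Hsd17b12, described after its values were seen, had ratios of 0.95, 0.64, 0.75 and 0.72 on CC 1 to CC 4 and 1.01, 1.02, 1.37 and 1.04 on MM 1 to MM 4. All MM arrays lay above all CC arrays, with MM 3 the highest. The log2 difference was 0.35 ± 0.10 (limma adjusted p = 0.019). The call was lost without CC 2 (adjusted p = 0.0629) or MM 3 (0.053). In Cy5 alone the difference was -0.01 (adjusted p = 0.969), and in Cy3 it was -0.36, so the difference in the ratio lay in the reference channel.

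Tecr had 1.58, 1.58, 1.56 and 1.59 on the CC arrays and 1.25, 1.31, 1.21 and 1.31 on the MM arrays. The groups lay apart, with a gap of over 0.2 and little spread inside either. The log2 difference was -0.31 ± 0.10 (limma adjusted p = 0.049), -0.11 in Cy5 and 0.20 in Cy3. Its call was lost in 13 of 16 fits with 1 array left out (adjusted p 0.0506 to 0.0949), in all but those without C 9, C 10 or M 6. In the authors' deposited series table Tecr differed by -0.13 (adjusted p = 0.462), and by -0.21 between M and C (adjusted p = 0.219).

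In Cy5 alone 1 of the 27 genes passed, against 2.9% of all genes. Agpat2, which adds the second fatty acid to glycerol phosphate, had Cy5 levels of 9.33, 9.34, 9.29 and 9.24 on CC 1 to CC 4 and 9.17, 9.01, 8.76 and 8.85 on MM 1 to MM 4, as seen after its values were known. All MM arrays lay below all CC arrays. The log2 difference was -0.36 ± 0.09 (limma adjusted p = 0.036), but Cy3 also differed by -0.22, and the ratio by only -0.13. The call was lost without CC 1, CC 2, CC 3, CC 4, MM 2, MM 3 or MM 4 (adjusted p up to 0.11). The reference channel differed for 22 of the 27 genes (8 higher, 14 lower), against 66.7% of all genes. Of the 27 genes, 0 passed in both the ratio and Cy5 in the same direction in either mixture comparison. Over all genes tested, 122 were higher and 61 lower in both for M against C, and 119 and 34 for MM against CC.

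The core genes did not pass in cross-fostered pups either. The log2 difference of MM from CC was -0.20 ± 0.38 for Fasn, -0.47 ± 0.42 for Scd, -0.22 ± 0.37 for Elovl6, -0.02 ± 0.11 for Acaca, 0.06 ± 0.09 for Thrsp and 0.28 ± 0.12 for Dgat2. Gpd1 gave -0.40 ± 0.14 (limma adjusted p = 0.059). CC 1 carried adipocyte, muscle and pancreas markers. The mean ratio of its hepatocyte markers was 5.84, against 7.24 to 7.66 on the other arrays. The liver channel did not show a gap of that size. There the summed Cy5 signal of these markers was 1906000 on CC 1 and 1908000 on M 7. CC 1 had the highest ratio of the 16 arrays for 8 of the 27 genes (29.6%), against 16% of all genes. Without CC 1 and CC 2, a setting chosen after seeing the data, 2 of the 27 genes passed, against 12.1% of all genes: Hsd17b12 at 0.38 ± 0.11 (adjusted p = 0.0437) and Me1 at 0.92 ± 0.27 (adjusted p = 0.0378), and over the alternatives run these p ranged from 0.00095 to 0.969 and from 0.028 to 0.327. Tecr was then -0.30 (adjusted p = 0.164) and Fasn 0.17, a change of sign. The Dgat2 groups lay apart in the ratio and overlapped in Cy5, where the difference was -0.06. Dgat2 was called higher in MM with the authors' deposited series table, the scanner software's log ratio and scale normalisation between arrays. Above 0 and not passing were also Fads1 at 0.45 and Acss2 at 0.40 in the ratio, with -0.22 and -0.10 in Cy5.

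**Figure D5:**
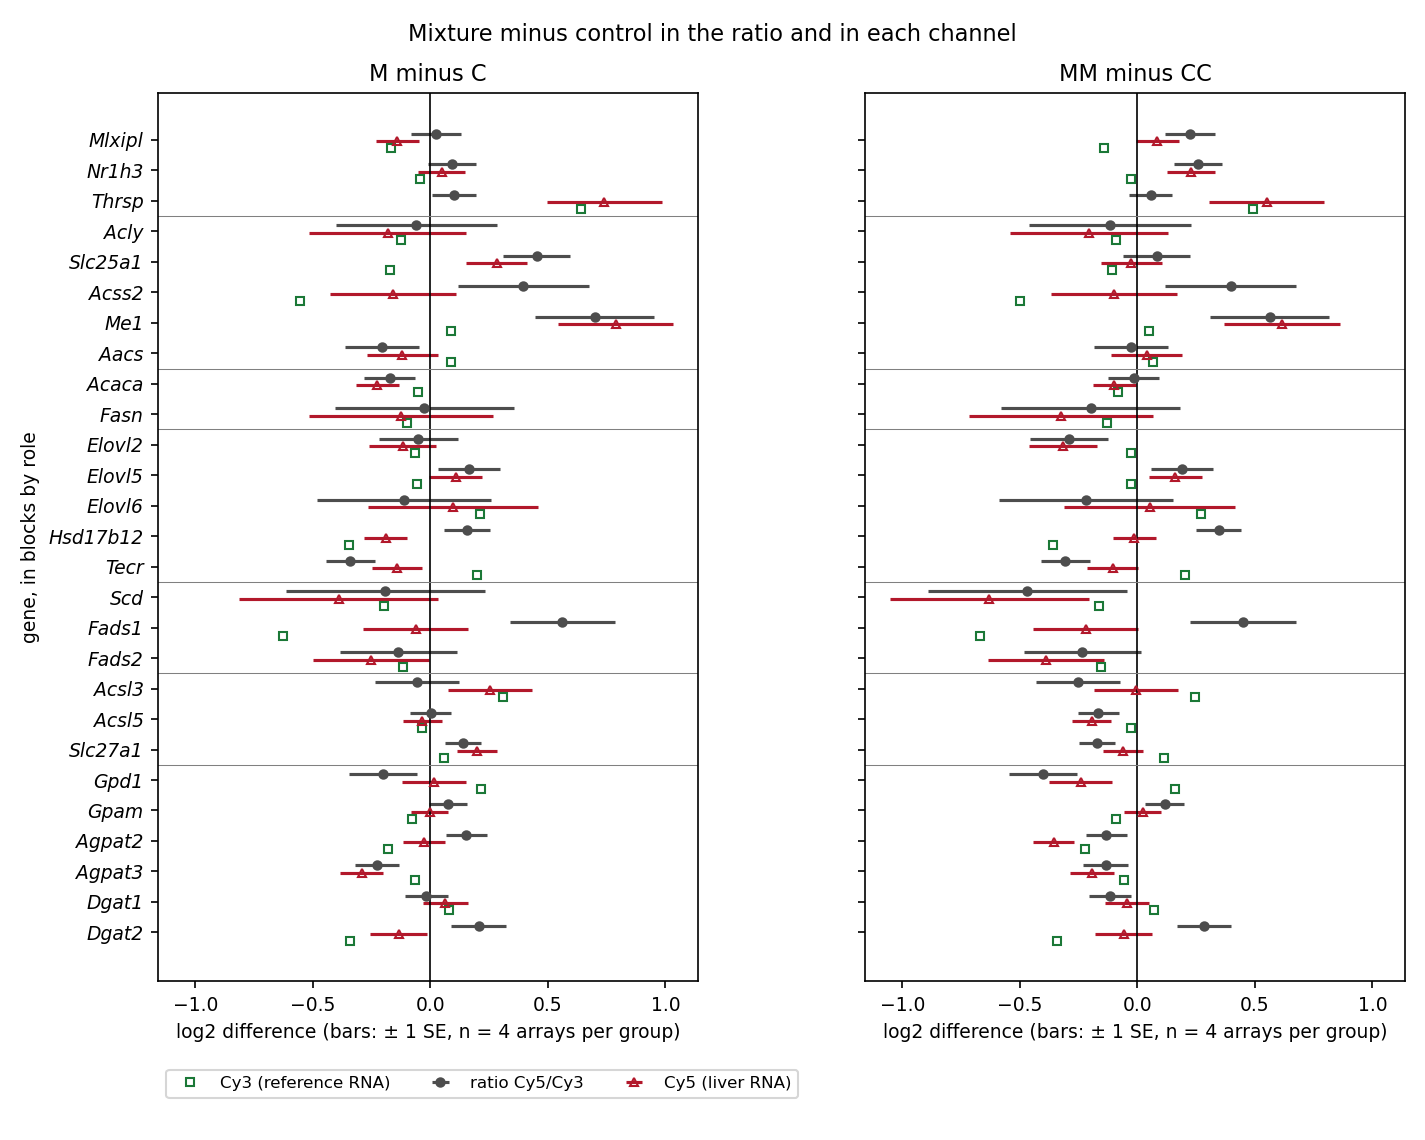
Log2 difference between mixture and control for each of the 27 genes, for pups with their own dams (M minus C) and cross-fostered pups (MM minus CC), in the ratio, in Cy5 alone and in Cy3 alone. For Fads1, Acss2 and Hsd17b12 the ratio lies right of Cy5 by as much as Cy3 lies left of 0, and Me1 is the highest point in Cy5, at 0.79 and 0.62.

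Cross-fostering, compared within a slide, changed none of the 27 genes by the test. In unexposed pups (CC against C) 0 of 27 passed in the ratio and 0 in Cy5, against 0% of all genes in each. Unadjusted p was below 0.05 for 0 of the 27 genes in either scale, and for 336 genes of all tested in the ratio. The member differences were -0.13 to 0.51, with Scd at 0.51 ± 0.42, Acly at 0.41 ± 0.34 and Fasn at 0.28 ± 0.38. The median over the 27 was 0.11, against 0.01 over all genes, and it was -0.02 without C 9.

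In exposed pups (MM against M) 0 of 27 passed in the ratio and 0 in Cy5, against 0% of all genes in each, and 2 genes had an unadjusted p below 0.05, against 275 of all tested. Slc27a1, a fatty acid transport protein, was 0.27 lower on the log2 scale in MM (SE 0.08), with the groups apart in the ratio and in Cy5, and its limma adjusted p was 0.999. The median over the 27 was 0.08, against 0.00 over all genes. The interaction asks whether the mixture difference changed with cross-fostering. There 0 of 27 passed in the ratio and 0 in Cy5, against 0% of all genes in each, and 2 genes had an unadjusted p below 0.05, against 349. Its median was -0.10 over the 27 genes, 0.11 without C 9 and 0.02 without M 6, so its sign turned with single arrays.

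Thrsp behaved unlike the other genes in the reference channel. Its Cy5 level ran from 10.60 on C 9 to 12.61 on MM 4, a range of 4.03-fold over the 16 arrays, and its Cy3 level ran from 6.46 to 7.96 on the same arrays. Within slide 1 its Cy3 range was 0.88 and within slide 2 0.83, against at most 0.29 and 0.26 for the other tested genes of the pathway and a median of 0.17 and 0.13 over all genes. Only 0.588% and 0.124% of all genes had so wide a Cy3 range. The ratio of Thrsp therefore ranged only 1.44-fold. The difference of M from C was 0.10 ± 0.09 in the ratio, 0.74 in Cy5 (limma adjusted p = 0.118) and 0.64 in Cy3, and that of C 9 from the other C arrays was -0.32, -0.93 and -0.60. For the same 16 arrays the Cy5 range was 7.21-fold for Scd, 5.0-fold for Fasn, 4.85-fold for Elovl6 and 4.47-fold for Acly.

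Among 62 other named genes of lipid synthesis and its control, 45 were tested, with some called in each mixture comparison. Between M and C 7 passed in the ratio (15.6%, against 20.4% of all genes), with Acsl4, Gpat4, Mbtps1 and Nr1h2 higher and Agpat5, Pklr and Scap lower. Between MM and CC 5 passed (11.1%, against 20%), with Gpat4 and Mbtps1 higher and Agpat5, Mogat2 and Scap lower. In Cy5 alone 1 of the 45 passed between M and C (2.22%, against 3.17%) and 2 between MM and CC (4.44%, against 2.9%). In CC against C, MM against M and the interaction 0 passed in the ratio, with 3, 0 and 0 at an unadjusted p below 0.05. Gpat4 was 0.45 in the ratio and -0.11 in Cy5 between M and C, with -0.56 in Cy3.

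Pklr, the liver pyruvate kinase and a known target of ChREBP, was the one gene of this list lower in both scales between M and C. Its log2 difference was -0.48 ± 0.11 in the ratio (limma adjusted p = 0.0065) and -0.54 in Cy5 (adjusted p = 0.0075), with all M arrays below all C arrays in both. Both calls stood without each array in turn (adjusted p at most 0.0252 and 0.0279). Between MM and CC it was -0.27 in the ratio (adjusted p = 0.094) and -0.38 in Cy5 (adjusted p = 0.048), a call that was lost in 12 of 16 fits with 1 array left out. Scap, which escorts SREBP to the Golgi, was -0.73 ± 0.12 in the ratio between MM and CC (adjusted p = 0.00053) and -0.43 in Cy5 (adjusted p = 0.045), and the Cy5 call was lost in 12 of 16 such fits. Mlxipl itself differed by 0.03 and 0.23 in the ratio in the 2 comparisons and did not pass.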

How the data were processed

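Liver RNA of male rat pups was hybridised with a universal reference RNA on 16 dual-colour arrays, with Cy5 on the liver RNA and no dye swap. The authors extracted the scans with Agilent's software (Feature Extraction 11.0.1.1, per the file headers), and the median spot and local background intensities in the deposited files were used here, since the planned mean signals are not among the columns used. The deposited log10 ratio was made by the scanner software after its own background subtraction and dye normalization, per the file headers. The authors' deposited series table holds log2 ratios whose normalization is not given in the sources used here, and whose direction and scale matched the ratios computed here (correlation per array 0.996 to 0.997). Both served as alternatives.

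Background was corrected with normexp (offset 50), outlier spots were left out, and ratios were normalized by loess within each array, with 4259 control spots of 62976 at weight 0. Levels in Cy5 or Cy3 alone came from loess followed by Aquantile. Replicate spots were averaged. A probe was kept where Cy5 was well above background on 3 or more of the 4 arrays in any group, a rule that 13262 of 30367 probes met. Symbols came from RefSeq accessions matched to RefSeq genes of GRCr8 for 18005 probes, and 12362 kept their identifier. The files annotate probes on another build, so no gene coordinates are given.

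With limma 3.58.1 (R 4.3.3), 1 model with 4 group means was fitted over the 16 arrays (lmFit and eBayes, 12 residual and 3.95 prior degrees of freedom). All tests were two-sided, adjusted by Benjamini-Hochberg over 12072 genes, and called at an adjusted p below 0.05. Precision is limited by the number of arrays. The steps were tested on simulated data. The R packages data.table (1.17.8) and jsonlite (2.0.0) read the files, and promoters and figures were handled in Python 3.11.15 with pandas 2.3.3 and matplotlib 3.10.9.

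The members and lists were chosen with earlier results of these data known. Array-by-array values were planned for Fasn, Acaca, Scd, Elovl6, Srebf1, Thrsp and Dgat2 and for any member called in both the ratio and Cy5 in the same direction, of which there was none. Other members given array by array are said to be chosen after their values were seen. The alternatives tried were the 2 deposited ratios, Cy5 alone, no background correction, scale normalisation between arrays, no filter, a filter on all 16 arrays, the mean over probes, array row or replicate number as a block, only the 8 arrays compared, and each array left out. CC and MM share the replicate numbers 1 to 4. The correlation of same-numbered arrays was 0.057 to 0.339, highest for CC 1 with MM 1, against -0.337 to 0.28 for arrays with different numbers. The ranges overlapped, and the numbers were not taken to pair the arrays.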

Additional observations from a re-analysis of the deposited data

Results flagged for a closer look

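The 6 values listed here stood apart within their group of 4 arrays, in the sense that the gap to the nearest array took most of the range of the 4. On C arrays these were Mlxipl, highest on C 11 at a log2 ratio of 1.373, Acsl5, lowest on C 9 at 1.362, and Agpat3, highest on C 10 at 2.191. On CC arrays they were Nr1h3, lowest on CC 1 at 3.527, and Dgat2, lowest on CC 1 at 3.997. On MM arrays it was Hsd17b12, highest on MM 3 at 1.366, which is 1 of the arrays on which its call rested. Chance gives such a gap in about 1 in 20 groups, and it was found for 3 of 27 members in C, 2 in CC, 0 in M and 1 in MM, against 5.41%, 7.21%, 4.38% and 5.13% of all genes. The large falls of Scd, Fasn and Elovl6 on C 9 are not among these values, because C 10, C 11 and C 12 were themselves spread.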

How the results depend on the processing

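The count of members called was small under every setting. Shares of all genes called under the same setting are given in brackets. For M against C the count was 2 (20.4%), and it was 1 with the deposited series table (19.3%), 4 with the scanner software's log ratio (33.3%), 0 in Cy5 alone (3.17%), 1 with no filter on dim probes (8.39%), 1 with only the 8 arrays compared (19.7%), and 0 in Cy5 alone without C 9 (1.55%). For MM against CC it was 2 (20%), and it was 6 with the scanner software's log ratio (32.8%), 1 in Cy5 alone (2.9%), 1 with no filter (8.05%), 4 with array row as a block (27.3%), and 1 in Cy5 alone without C 9 (2.79%). With the deposited series table (17.9%) and with scale normalisation (20%) it was 3, Dgat2, Hsd17b12 and Nr1h3, all higher, and Tecr was not called. With the replicate block it was 4 (Fads1, Nr1h3, Scd and Tecr; 16.6%), although the numbers were not shown to pair the arrays. With each array left out in turn it ranged from 0 to 3 in both comparisons. The share of all genes in those fits was 15.7% to 22.9% for M against C and 14.6% to 21% for MM against CC. The settings that leave out C 9 in Cy5, or the pairs CC 1 and CC 2 or C 10 and CC 1, were chosen after seeing the data. Hsd17b12 between MM and CC turned from 0.345 to -0.013 in Cy5 alone, with and without C 9. CC against C, MM against M and the interaction gave 0 members (0%) in every setting run. The signal of Acaca near background limits what can be said of it. The cause of these shifts was not tested.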
